A study of Mus musculus with 2 samples.

Results

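Long intergenic noncoding RNAs (lincRNAs) were described in TEa cells, which are CD4 T cells of C57BL/6 background with a transgenic T cell receptor against a peptide of the I-E alpha chain. The members were the genes that the deposited count table types as lincRNA and that had at least 50 reads over both libraries together, which were 126 of 2769 lincRNA genes and of 35275 genes of any type. They were thus chosen by their summed reads. In the exhausted group, TEa cells were given to CB6F1 mice, whose parents are the BALB/c and C57BL/6 strains and whose own tissues carry the antigen, and no graft is recorded. In the effector group, TEa cells were transferred into wild-type C57BL/6 mice that received a BALB/c skin graft. The group names are the submitters' titles, and the series set abundant against moderate antigen. Recipient strain and graft differ together with the antigen, so these cannot be told apart. In both groups the cells were sorted from splenocytes and total RNA was sequenced from a low-input library, 1 library per group. The sources used here do not state recipient age, animals per library or sort markers.

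LincRNAs are transcribed by RNA polymerase II from loci between coding genes, are often spliced and polyadenylated like messenger RNAs, and as a class are less abundant and less conserved than messenger RNAs. Some act in the nucleus as scaffolds, such as Neat1, the backbone of paraspeckles, or Malat1, an abundant RNA of nuclear speckles. Others serve as the precursors of microRNAs or small nucleolar RNAs (snoRNAs), and many arise beside the start of a coding gene and have no known role.

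The exhausted library held 8508129 counted reads and the effector library 7844445. Because there was 1 library per group, no difference has a replicate check and no p-value is given. Each ratio is exhausted over effector after scaling by library size, and its 95% interval covers counting error only. A gene is called higher or lower where the scaled reads were at least 2-fold apart and the interval excluded equality. The labelled cell type was checked on Cd3e, Cd3d, Cd4 and Trac, which summed to 5288 CPM (reads scaled to library size) in exhausted and 5697 CPM in effector cells. Within that sum Trac, the alpha chain constant segment of the T cell receptor, was called lower, with 11561 reads in exhausted and 22526 in effector cells, while Cd4, Cd3e and Cd3d had ratios of 1.54, 1.39 and 1.15. Marker lists of 9 other cell types each summed to between 0.118 and 26.9 CPM in exhausted cells, against 0.765 to 20.9 CPM in effector cells, and Cd8a, Ms4a1 and Sdc1 had 0 reads in both. Itgam, with 183 exhausted and 22 effector reads, and the natural killer cell marker Klrb1c, with 229 exhausted and 36 effector reads, were called higher, whereas Jchain, Cd8b1 and Hba-a1 were called lower. Of the myeloid markers listed with Itgam, Lyz2 had 10 reads in exhausted and 37 in effector cells, and Csf1r had 4 in exhausted and 18 in effector cells. Cd68, also on that list, had 11 in exhausted and 8 in effector cells. Ncr1, listed with Klrb1c, had 0 in exhausted and 5 in effector cells. The neutrophil markers S100a8 and S100a9 had 1 and 2 reads in exhausted cells, against 30 and 32 in effector cells. Whether these cells contribute to any lincRNA below was not tested, and in such bulk RNA fewer cells that make a transcript and less transcript per cell cannot be told apart.

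The sequences that several of these RNAs are known for are shown first. A330023F24Rik, A430104N18Rik (Mir142hg in GENCODE M21) and Mir17hg are microRNA host genes, and 10 of the mature microRNAs that lie inside their spans on the same strand are printed here 5′ to 3′ from RefSeq (GRCm38.p6), with the seed, bases 2 to 8, in capitals. The pair from A330023F24Rik on chromosome 1 shares a seed, as do miR-17 with miR-20a and miR-19a with miR-19b from the cluster on chromosome 14.
mmu-miR-29b-3p: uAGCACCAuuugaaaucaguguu
mmu-miR-29c-3p: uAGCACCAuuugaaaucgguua
mmu-miR-142a-5p: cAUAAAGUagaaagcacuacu
mmu-miR-142a-3p: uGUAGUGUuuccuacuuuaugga
mmu-miR-17-5p: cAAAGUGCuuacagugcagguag
mmu-miR-20a-5p: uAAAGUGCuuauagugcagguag
mmu-miR-18a-5p: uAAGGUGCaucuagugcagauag
mmu-miR-19a-3p: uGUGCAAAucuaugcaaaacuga
mmu-miR-19b-3p: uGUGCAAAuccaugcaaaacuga
mmu-miR-92a-3p: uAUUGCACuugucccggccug

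3 promoter windows carry the results on the antisense pairs and on the lower lincRNA with most reads. Each runs from 250 bases before to 50 bases after the RefSeq start and is printed on the strand of its gene (GRCm38.p6). The RefSeq start of Sidt1 lies 358 bases inside the span the count table gives that gene, so its whole window falls within this span. For Kcnq5 and Gm19585 the RefSeq start equals the start in the count table. For the coding genes Sidt1 and Kcnq5 the capitals mark bases that lie in exons of the lincRNA on the other strand, Gm26732 or Gm26580. For Gm19585, which the table names RP23-307A6.1, the capitals mark the 50 transcribed bases.
Sidt1, chr16:44332789-44333088, minus strand: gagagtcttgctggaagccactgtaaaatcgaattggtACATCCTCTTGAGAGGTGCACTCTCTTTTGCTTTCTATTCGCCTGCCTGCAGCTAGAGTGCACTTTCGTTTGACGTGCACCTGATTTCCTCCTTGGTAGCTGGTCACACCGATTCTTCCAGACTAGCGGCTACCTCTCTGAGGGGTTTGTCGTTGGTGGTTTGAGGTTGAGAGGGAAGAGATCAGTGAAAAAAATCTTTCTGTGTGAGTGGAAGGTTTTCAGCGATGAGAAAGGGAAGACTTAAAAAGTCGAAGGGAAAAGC
Kcnq5, chr1:21961893-21962192, minus strand: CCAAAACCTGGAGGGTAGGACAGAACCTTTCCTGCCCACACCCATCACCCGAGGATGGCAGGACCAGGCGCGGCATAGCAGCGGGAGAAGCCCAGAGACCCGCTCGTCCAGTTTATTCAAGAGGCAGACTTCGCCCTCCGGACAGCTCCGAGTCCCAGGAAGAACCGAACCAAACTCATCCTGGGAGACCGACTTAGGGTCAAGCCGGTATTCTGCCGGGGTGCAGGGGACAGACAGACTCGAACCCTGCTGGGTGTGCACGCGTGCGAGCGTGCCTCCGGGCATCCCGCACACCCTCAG
Gm19585, chr17:52149039-52149338, plus strand: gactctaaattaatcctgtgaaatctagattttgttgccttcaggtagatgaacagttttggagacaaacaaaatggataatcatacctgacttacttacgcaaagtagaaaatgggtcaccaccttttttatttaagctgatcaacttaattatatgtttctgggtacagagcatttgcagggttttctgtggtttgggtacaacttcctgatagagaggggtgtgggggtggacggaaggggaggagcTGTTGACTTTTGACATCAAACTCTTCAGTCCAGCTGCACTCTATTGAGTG
The exons of Gm26732 cover 262 of the 300 bases of the Sidt1 window, and those of Gm26580 cover all 300 bases of the Kcnq5 window. Both strands were searched for 4 short motifs, the TATA element TATAAA, the CCAAT box, the AP-1 element TGANTCA, and the letters GGAAAA that NFAT sites contain. The Sidt1 window held a single CCAAT and, elsewhere, a single match to GGAAAA, and the windows of Kcnq5 and Gm19585 held no match to any of the 4. Of 32851 RefSeq windows of the same length, 13.6% held the TATA element, 37.4% the CCAAT box, 7.81% the AP-1 element and 23.4% the NFAT letters.

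Most lincRNAs had few reads. Of the 2769 lincRNA genes, 2064 had 0 reads in both libraries and 579 had 1 to 49 reads, whereas 9544 of 22026 protein-coding genes reached 50. Among the 126 members, 53 had 50 to 99 reads over both libraries, 36 had 100 to 199, 24 had 200 to 499, 6 had 500 to 999 and 7 had more. Their median was 122 reads, against 795 for the measured protein-coding genes. As RPKM, which are reads per kilobase of deposited gene length scaled to library size, the median level of the members was 3.77 in exhausted and 3.32 in effector cells, against coding medians of 15.0 in exhausted and 15.1 in effector cells. Only 14 members in exhausted and 16 in effector cells lay above the coding median.

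Yam1 had the highest level per length in exhausted cells, at 582 RPKM, against 269 RPKM in effector cells. Malat1 stood at 390 RPKM in exhausted and 336 RPKM in effector cells, the highest lincRNA level of the effector library. The microRNA host A430104N18Rik followed at 208 RPKM in exhausted and 130 RPKM in effector cells. A630023P12Rik and AI662270, with no role assigned here, followed in exhausted cells at 98.3 and 74.1 RPKM, against 80.5 and 68.3 RPKM in effector cells. Length weighs on this order. Neat1, with a deposited length of 20771 bases, had a level of only 5.83 RPKM in exhausted and 2.71 RPKM in effector cells despite its many reads. Among all 9999 measured genes Malat1 ranked 125 by RPKM in exhausted and 157 in effector cells, and Yam1 ranked 68 in exhausted and 208 in effector cells.

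**Figure D1:**
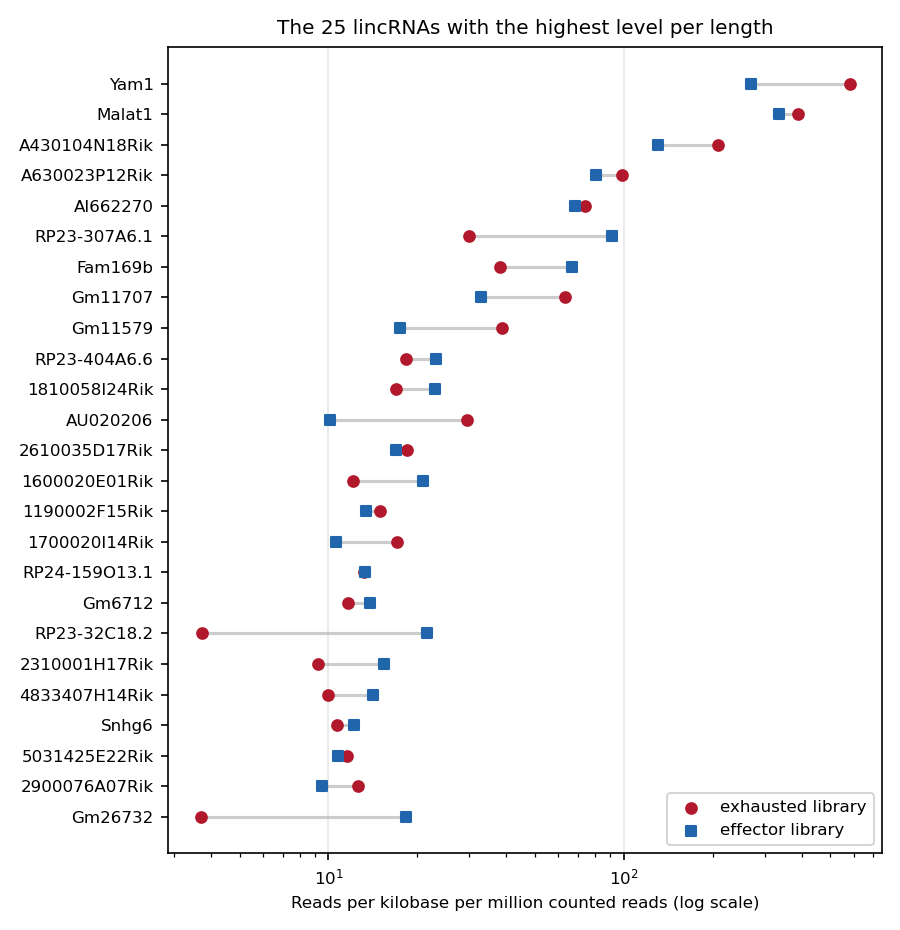
Level of the 25 lincRNAs with the highest level per length, in RPKM on a log axis, with 1 circle for the exhausted and 1 square for the effector library. Yam1 and Malat1 head the list, and RP23-307A6.1, RP23-32C18.2 and Gm26732 lie far lower in exhausted cells.

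The members together took 47738 reads of the exhausted library, or 0.561%, and 36063 reads of the effector library, or 0.460%. The scaled ratio of these sums was 1.22 (1.21 to 1.24). Malat1 alone held 48.5% of the member reads in exhausted and 51.0% in effector cells, and Yam1 held 18.98% in exhausted and 10.7% in effector cells. Without both the scaled ratio was 1.04, so the remaining 124 lincRNAs summed to nearly the same share in both libraries.

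Of the 126 members, 20 were called higher (15.9%) and 10 lower (7.94%) in exhausted cells, beside 6.65% higher and 7.07% lower of all 9999 measured genes and 6.34% higher and 6.97% lower of the protein-coding ones. Neither ratio nor direction entered the rule, but the same 2 columns did, so a lincRNA with few reads in 1 library became a member only through the other, and these counts are given as a description. Read number moves with the share called. At 50 to 199 reads, 24.7% of 89 lincRNAs were called (16.9% higher, 7.87% lower), against 30.8% of 1550 protein-coding genes (217 higher, 260 lower). At 200 reads or more, 21.6% of 37 lincRNAs were called (13.5% higher, 8.11% lower), against 9.92% of 7994 protein-coding genes (4.85% higher, 5.07% lower). This range has no upper limit and does not match read number. Of its 37 lincRNAs 24 had 200 to 499 reads, whereas all measured protein-coding genes had a median of 795. The lincRNA share called in either direction was below the coding share in the first range and above it in the second. In the first range only the lower calls fell below the coding share, and the higher calls lay above it. In the second range the share rests on 8 lincRNAs: Yam1, Neat1, Gm11579, AU020206, C530050E15Rik, RP23-307A6.1, Gm26732 and BC043934. The median log2 ratio of the members was 0.10, with quartiles at -0.37 and 0.65, beside a median of -0.0017 with quartiles at -0.32 and 0.33 over all measured genes. Another 32 members had intervals that excluded equality at less than 2-fold.

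**Figure D2:**
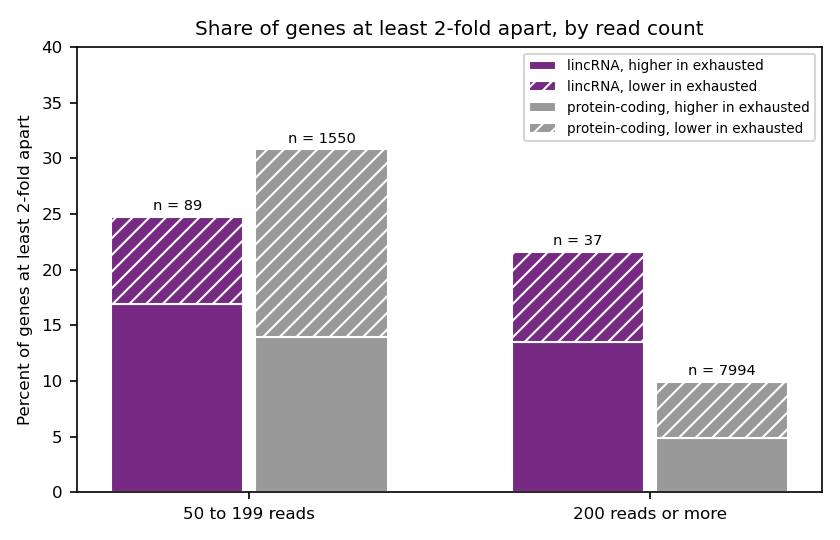
Percent of genes at least 2-fold apart, in 2 ranges of reads over both libraries, with purple bars for lincRNAs and grey bars for protein-coding genes. Solid parts are higher and hatched parts lower in the exhausted library. The lincRNA bars reach 24.7% and 21.6%, and the coding bars 30.8% and 9.92%.

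**Figure D3:**
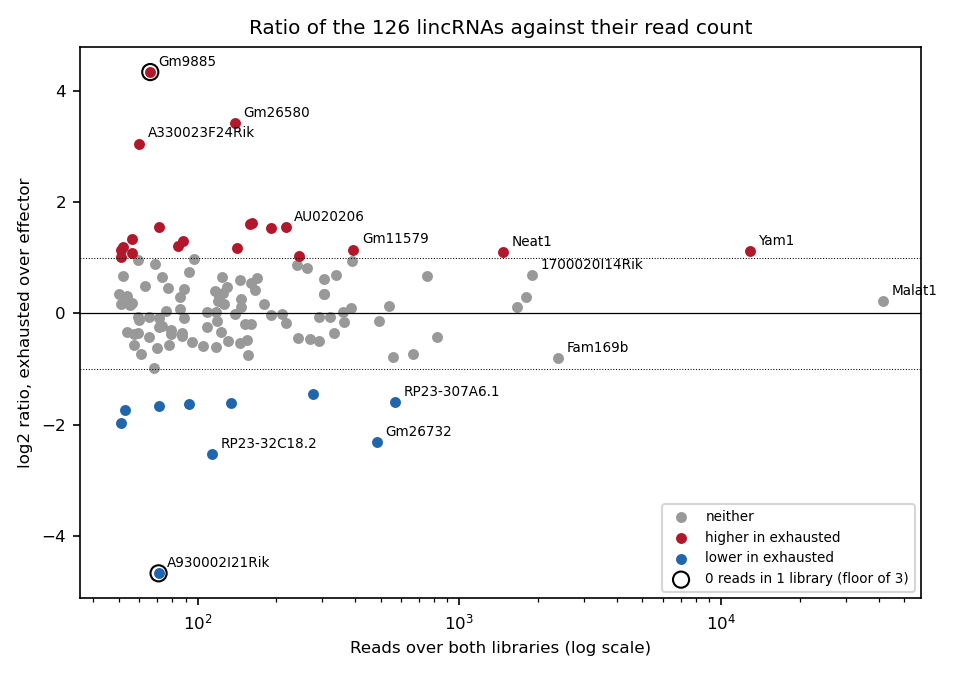
Log2 ratio of exhausted over effector against reads over both libraries (log axis) for the 126 lincRNAs, with dotted lines at 2-fold. Red points are called higher, blue points lower and grey points neither, and rings mark the members with 0 reads in 1 library. Malat1, farthest right, lies near equality, and the 3 highest and 2 lowest ratios belong to lincRNAs with under 200 reads.

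Of the nuclear RNAs, Neat1 was higher in exhausted cells and Malat1 nearly equal, although both lie on the same strand of chromosome 19 only 22036 bases apart. Neat1, the scaffold of paraspeckles, had 1030 reads in exhausted and 442 in effector cells, a ratio of 2.15 (1.93 to 2.41). Malat1 had 23149 reads in exhausted and 18396 in effector cells, a ratio of 1.16 (1.14 to 1.19). The difference at Neat1 is thus the larger of the 2. Frmd8, the nearest measured coding gene to Neat1, had 5290 reads in exhausted and 3336 in effector cells, a ratio of 1.47 (1.40 to 1.53), and was not called. The proteins of the paraspeckle were measured at all 8 listed genes and none was called, beside 9.92% of all protein-coding genes with 200 reads or more. Sfpq, an RNA-binding protein needed for paraspeckles, had 1698 reads in exhausted and 996 in effector cells (1.58-fold), and Rbm14 had 758 reads in exhausted and 444 in effector cells (1.58-fold). Hnrnpk, with 12006 reads in exhausted and 13660 in effector cells, had a ratio of 0.813 (0.793 to 0.833). Nono, with 3421 in exhausted and 3338 in effector cells, had a ratio of 0.948 (0.903 to 0.994). Of the 8 genes, 4 had intervals above equality and 2 below it, with a median log2 ratio of 0.11 over the list.

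Of 13 listed nuclear and X-chromosome RNAs of any type, 6 were measured and only Neat1 was called. Jpx and Ftx, noncoding genes of the X-inactivation centre, had 46 and 67 reads in exhausted cells, against 31 and 53 in effector cells. The interval of both ratios included equality. Xist, the RNA that coats the inactive X chromosome, had 1 read in exhausted and 0 in effector cells.

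Yam1, on chromosome 17 from 39846958 to 39848788, had 9062 reads in exhausted and 3861 in effector cells, a ratio of 2.17 (2.09 to 2.25). The same locus is called Gm42418 in GENCODE M21, where it is a single exon that overlaps, on the other strand, a gene typed rRNA and the pseudogene AY036118. AY036118 had 0 reads in both libraries. Gm26917, a processed transcript 713 bases away on the same strand, had 3340 reads in exhausted and 1767 in effector cells, a ratio of 1.75 (1.65 to 1.85). Both neighbouring transcripts thus had more reads in exhausted cells, and what ribosomal RNA fragments contribute to them was not tested. No measured coding gene lies within 100 kb of Yam1.

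Among the microRNA hosts, A330023F24Rik, which spans Mir29b-2 and Mir29c, was called higher. It lies on chromosome 1 from 194976375 to 195037908 and had 54 reads in exhausted and 6 in effector cells, a ratio of 8.32 (3.58 to 23.7). Its effector value rests on those 6 reads, and the width of the interval follows from them. In GENCODE M21 its exons overlap exons of Cd46 and Gm16897 on the other strand. Cd46, a complement regulator, had 15 reads in exhausted and 16 in effector cells, and Gm16897 had 3 in exhausted and 2 in effector cells. Neither partner differed beyond counting error, and Cr1l, the nearest measured coding gene at 65881 bases, had 958 reads in exhausted and 1003 in effector cells.

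A430104N18Rik, the host of Mir142, a microRNA of blood cells, had 476 reads in exhausted and 275 in effector cells, a ratio of 1.60 (1.38 to 1.86), under the 2-fold line. Mir17hg, the host of the miR-17-92 cluster, had 37 reads in exhausted and 42 in effector cells, a ratio of 0.815 (0.509 to 1.30). The cluster's host was thus not distinguishable between the libraries at this depth. The counts are of host transcripts and do not measure the mature microRNAs printed above. Of the 17 listed microRNA hosts of any type, a list that does not hold A330023F24Rik, 4 were measured. None of the 4 was called, beside 13.7% of all measured genes. Among 7 measured genes of microRNA processing, Ago1, an Argonaute protein that binds microRNAs, was called higher with 235 reads in exhausted and 93 in effector cells, a ratio of 2.34 (1.83 to 3.003). Ago2 had 1094 reads in exhausted and 713 in effector cells, a ratio of 1.42 (1.29 to 1.56), and the other 5 were not called.

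The snoRNA hosts among the lincRNAs differed little. Of 21 listed hosts, 13 were measured, of which 6 are members and none of those was called, beside 23.8% of all members. Snhg1, whose span holds 8 snoRNA genes of GENCODE M21, had 164 reads in exhausted and 158 in effector cells. Snhg20 (2810008D09Rik) had 189 reads in exhausted and 171 in effector cells, and Snhg6 had 74 in exhausted and 78 in effector cells. Snhg4, Snhg12 and Epb41l4aos (2410004N09Rik) completed the 6, and all ratios lay between 0.877 and 1.25 with intervals that included equality. The one called host of the list, Snhg14 (RP24-439I22.1), is typed as a processed transcript and had 69 reads in exhausted and 26 in effector cells, a ratio of 2.45 (1.54 to 4.01). Among the hosts not typed lincRNA, Gas5, the one with most reads, had 1216 reads in exhausted and 1484 in effector cells, a ratio of 0.758 (0.702 to 0.818), and Zfas1 (1500012F01Rik) had 130 in exhausted and 182 in effector cells, a ratio of 0.660 (0.523 to 0.832). Snhg17 (9430008C03Rik) had 275 reads in exhausted and 207 in effector cells, a ratio of 1.23 (1.02 to 1.48). Outside the list, 2700038G22Rik, which holds Snord93, had 60 reads in exhausted and 24 in effector cells, a ratio of 2.31 (1.42 to 3.88).

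Many noncoding transcripts are removed by the nuclear exosome or by nonsense-mediated decay, and no gene of either pathway was called. Of all protein-coding genes with 200 reads or more 9.92% were called, a share at which lists this short hold few called genes. Of 15 exosome genes, 2 had intervals above equality and 4 below it, with a median log2 ratio of -0.06 over the list. Exosc4, a core subunit, had 320 reads in exhausted and 412 in effector cells, a ratio of 0.718 (0.619 to 0.833). Of 10 decay genes, 5 had intervals above equality and 3 below it, with a median log2 ratio of 0.20, so genes of this pathway differed in both directions by less than 2-fold. Smg6, the endonuclease of the pathway, had 933 reads in exhausted and 542 in effector cells, a ratio of 1.59 (1.43 to 1.77), and Smg9 had 390 in exhausted and 561 in effector cells, a ratio of 0.643 (0.563 to 0.733).

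Of 14 listed immune and p53-related noncoding RNAs, 4 were measured. Both members among them, Pvt1, a neighbour of the Myc gene, and Mirt1 (5830416P10Rik), were near equality. Pvt1 had 78 reads in exhausted and 82 in effector cells, and Mirt1 had 106 in exhausted and 111 in effector cells. The other two are typed as processed transcripts and were called in opposite directions. Lncpint (Lincpint), a p53-induced RNA, had 413 reads in exhausted and 100 in effector cells, a ratio of 3.82 (3.06 to 4.80). Gm14005, known as Morrbid, had 2 reads in exhausted and 71 in effector cells, a ratio of 0.0260 (0.00309 to 0.0976).

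The 20 lincRNAs called higher ranged from Gm26518, at 2.02-fold, to Gm9885. Gm9885, on chromosome 7 from 78578830 to 78581038, had 66 reads in exhausted and 0 in effector cells. Set against a floor of 3 reads in the effector library it was 20.3-fold higher, a value that depends on the floor and is not a lower bound. Gm26580, on chromosome 1 from 21959842 to 21962530, had 128 reads in exhausted and 11 in effector cells, a ratio of 10.8 (5.82 to 22.1). Together with A330023F24Rik these were the 3 members at least 4-fold higher.

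Gpr137b-ps, which GENCODE M21 types as a transcribed pseudogene, had 124 reads in exhausted and 37 in effector cells, a ratio of 3.10 (2.13 to 4.60). Gm10505 had 122 reads in exhausted and 37 in effector cells, a ratio of 3.05 (2.10 to 4.53). AU020206 had 165 reads in exhausted and 52 in effector cells, a ratio of 2.93 (2.14 to 4.09). The intervals of these 3 lay wholly above 2-fold. AU020206 lies 15153 bases from Akap13, a kinase-anchoring protein with 6470 reads in exhausted and 4642 in effector cells, which was not called. 2310015A10Rik had 144 reads in exhausted and 46 in effector cells, a ratio of 2.89 (2.06 to 4.13). 5430416N02Rik had 101 reads in exhausted and 41 in effector cells, a ratio of 2.28 (1.57 to 3.36).

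Gm11579, on chromosome 1 from 60776665 to 60781834, ends 3306 bases from the end of Cd28, the costimulatory receptor of T cells, with which it runs tail to tail. It had 278 reads in exhausted and 116 in effector cells, a ratio of 2.22 (1.78 to 2.78). Cd28 had 9111 reads in exhausted and 5102 in effector cells, a ratio of 1.65 (1.60 to 1.71), and was not called. C530050E15Rik, which overlaps Fam65b, had 168 reads in exhausted and 76 in effector cells, a ratio of 2.04 (1.55 to 2.72). Fam65b, an inhibitor of RhoA in T cells, had 7579 reads in exhausted and 8059 in effector cells, a ratio of 0.870 (0.843 to 0.897). LincRNA and coding gene thus lay on opposite sides of equality there.

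Among the other members called higher, Gm26591 holds the microRNA gene Mir706, and Gm21781 had 54 reads in exhausted and 17 in effector cells, and Gm26617 had 64 in exhausted and 24 in effector cells. The remainder, Gm26522, Gm26581, Gm26591, Gm26890 and Gm26518, had 35 to 41 reads in exhausted and 15 to 17 in effector cells. Their ratios lay between 2.02 and 2.53, and no lower interval end exceeded 1.37. Gm26522 overlaps Ctsc, the gene of cathepsin C, a protease that activates granzymes, which had 2959 reads in exhausted and 1614 in effector cells, a ratio of 1.70 (1.59 to 1.80).

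**Figure D4:**
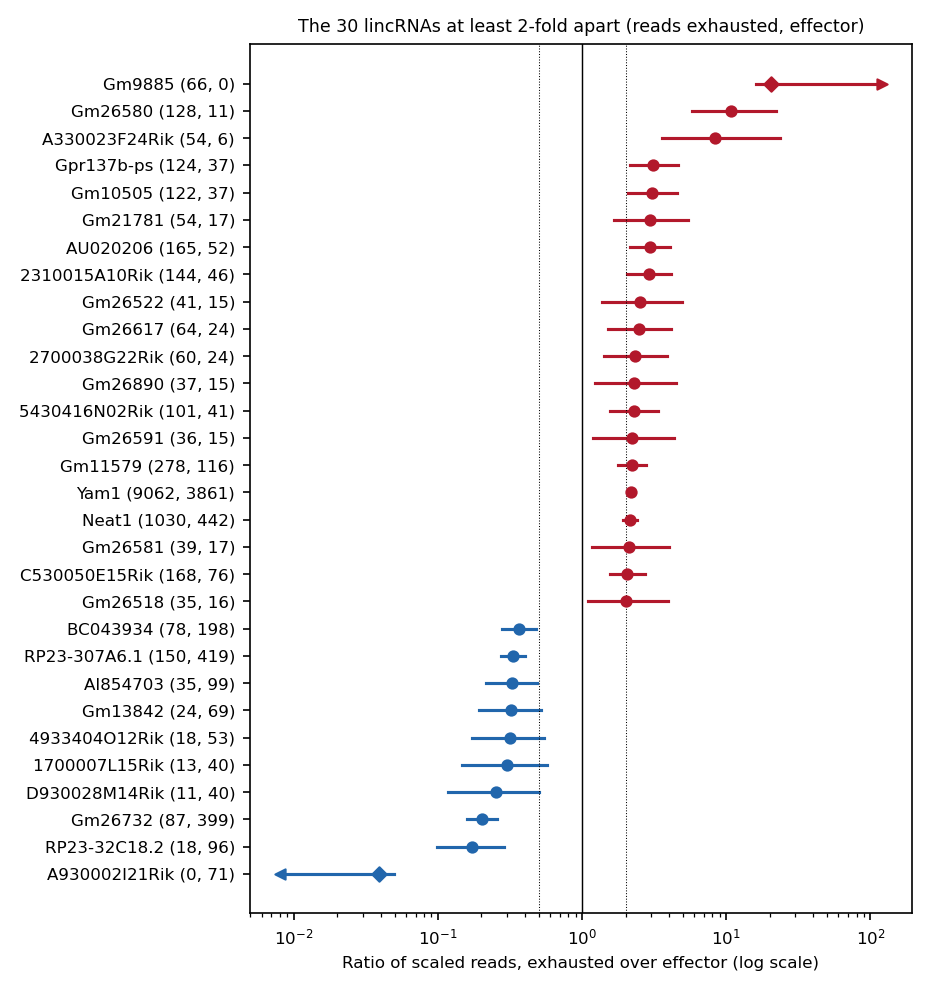
Ratio of scaled reads, exhausted over effector, on a log axis for the 30 lincRNAs called higher (red, 20) or lower (blue, 10), with their reads in brackets, exhausted first. Lines are 95% intervals of counting error, and dotted lines mark 2-fold. Diamonds are ratios set against a floor of 3 reads, and arrows mark the open end of their intervals. Yam1 and Neat1 have the narrowest intervals.

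Of the 10 lincRNAs called lower, A930002I21Rik and RP23-32C18.2 were farthest from equality. A930002I21Rik, on chromosome 3 from 107090880 to 107098401, had 0 reads in exhausted and 71 in effector cells. Set against a floor of 3 reads in the exhausted library it was 25.6-fold lower, a value that depends on the floor. It lies among potassium channel genes. Kcna3, the main voltage-gated potassium channel of T cells, 52751 bases away, had 1360 reads in exhausted and 718 in effector cells, a ratio of 1.75 (1.60 to 1.92). Between them lies another member, AI504432, with 90 reads in exhausted and 55 in effector cells, a ratio of 1.51 (1.07 to 2.16). Of these 3 genes only A930002I21Rik was lower in exhausted cells, while Kcna2, 3166 bases away, had 0 reads in exhausted and 5 in effector cells. Gm27008, typed antisense, overlaps the span of A930002I21Rik. It had 4 reads in exhausted and 12 in effector cells, a ratio of 0.308 (0.0724 to 1.02).

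RP23-32C18.2 (Gm28935 in GENCODE M21), on chromosome 19 from 11362278 to 11363890, had 18 reads in exhausted and 96 in effector cells and was 5.77-fold lower (3.46 to 10.1). It lies among genes of the Ms4a family of membrane proteins. Ms4a4c, 40880 bases away, had 196 reads in exhausted and 469 in effector cells and was 2.59-fold lower (2.19 to 3.07). Ms4a4a, which lies closer, had 12 reads in exhausted and 19 in effector cells and was not measured by the 50-read rule, and Ms4a7 had 0 in both.

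Gm26732, on chromosome 16 from 44329997 to 44333050, had 87 reads in exhausted and 399 in effector cells and was 4.96-fold lower (3.92 to 6.33). Sidt1, on the other strand, a membrane protein linked to uptake of double-stranded RNA, had 495 reads in exhausted and 2334 in effector cells and was 5.10-fold lower (4.63 to 5.63). The 2 folds differed by less than their counting intervals. In GENCODE M21, 461 of the 2771 exon bases of Gm26732 (16.6%) are shared with Sidt1. Spice1, a centriole gene 14071 bases beyond, was also called lower, with 185 reads in exhausted and 380 in effector cells.

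RP23-307A6.1 (Gm19585 in GENCODE M21), on chromosome 17 from 52149289 to 52163048, was the lower lincRNA with most reads. It had 150 reads in exhausted and 419 in effector cells and was 3.02-fold lower (2.50 to 3.67). The nearest measured coding gene is Satb1, a chromatin organiser of T cells, which runs head to head with it at a distance of 315999 bases. Satb1 had 2125 reads in exhausted and 6287 in effector cells and was 3.20-fold lower (3.05 to 3.36). This distance is beyond the 100 kb used for pairs.

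BC043934 had 78 reads in exhausted and 198 in effector cells and was 2.75-fold lower (2.10 to 3.62). AI854703, which GENCODE M21 types as protein-coding, had 35 reads in exhausted and 99 in effector cells and was 3.06-fold lower (2.06 to 4.64). The remaining 4 had few reads. Gm13842 had 24 in exhausted and 69 in effector cells, 4933404O12Rik 18 in exhausted and 53 in effector cells, 1700007L15Rik 13 in exhausted and 40 in effector cells, and D930028M14Rik 11 in exhausted and 40 in effector cells. Their folds lay between 3.11 and 3.93.

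Of the members with most reads that were not called, Fam169b, which GENCODE M21 types as protein-coding, had 916 reads in exhausted and 1472 in effector cells and was 1.74-fold lower (1.60 to 1.89). 1700020I14Rik had 1202 reads in exhausted and 690 in effector cells, a ratio of 1.61 (1.47 to 1.77). A630023P12Rik had 1021 in exhausted and 771 in effector cells, a ratio of 1.22 (1.11 to 1.35). These 3 intervals excluded equality, whereas the ratio of AI662270, with 900 reads in exhausted and 765 in effector cells, was 1.09. 1810058I24Rik had 364 reads in exhausted and 454 in effector cells, a ratio of 0.741 (0.644 to 0.853), and 2310001H17Rik had 262 in exhausted and 404 in effector cells, a ratio of 0.600 (0.511 to 0.702).

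A measured protein-coding gene lay within 100 kb of 113 members, by the table's coordinates, and these pairs held 108 distinct coding genes. The coding gene overlapped the lincRNA on the other strand in 27 pairs and on the same strand in 8. It lay head to head in 24, upstream on the same strand in 23, downstream on the same strand in 18 and tail to tail in 13. Of the 113 neighbours 16.8% were called, beside 13.3% of all measured protein-coding genes.

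Member and neighbour were called in the same direction in 6 pairs and in opposite directions in 1. In 20 pairs the lincRNA alone was called, in 12 the coding gene alone, and in 74 neither. The signs of the 2 log2 ratios were the same in 58 of 113 pairs. Across the pairs Pearson's r of the log2 ratios was 0.33 and Spearman's rho 0.10, given as a description, since all pairs come from the same 2 libraries. Without the 2 pairs of widest lincRNA ratio r was 0.28 over 111 pairs. Of these 2, Gm9885 and Ntrk3 lay on the same side of equality, and A930002I21Rik and Kcna3 on opposite sides. Pairs that share exon bases, such as Gm26732 with Sidt1, stayed in both values. Over the 78 pairs whose spans do not overlap r was 0.26 and rho 0.10.

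**Figure D5:**
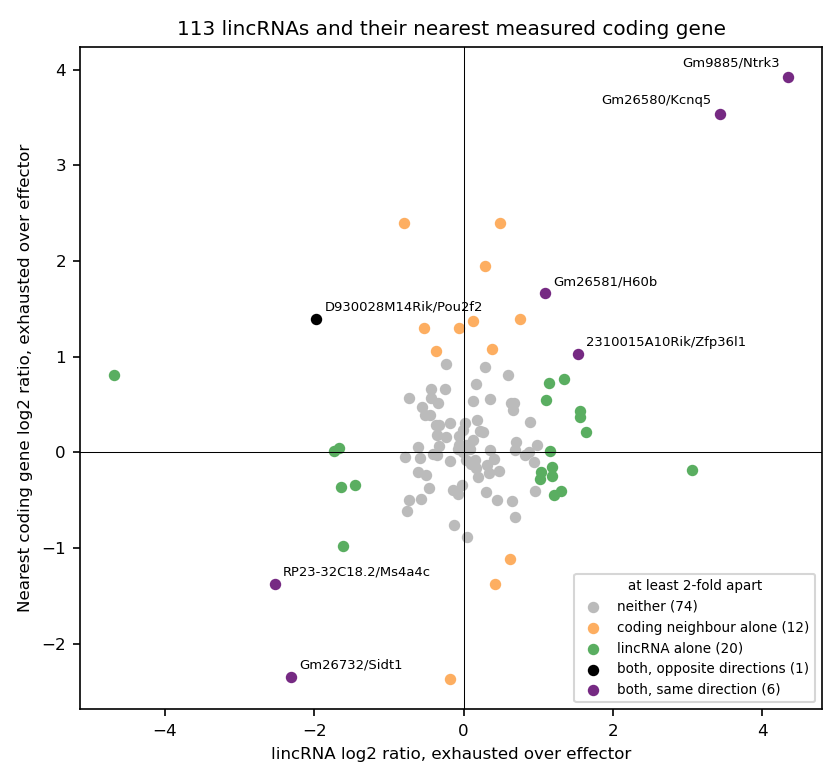
Log2 ratio (exhausted over effector) of the nearest measured coding gene against that of the lincRNA for the 113 pairs within 100 kb, coloured by which of the pair was called. The 6 purple pairs lie in the same direction, with Gm9885 and Ntrk3 at the upper right and Gm26732 and Sidt1 at the lower left, and most other points scatter about 0.

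4 of the 6 pairs were higher in exhausted cells. Gm9885 begins 422 bases from the start of Ntrk3, the receptor of neurotrophin-3, and runs head to head with it. Ntrk3 had 508 reads in exhausted and 31 in effector cells, a ratio of 15.2 (10.5 to 22.5). Gm26580 overlaps the start of Kcnq5, a voltage-gated potassium channel gene on the other strand, which had 150 reads in exhausted and 12 in effector cells, a ratio of 11.6 (6.42 to 22.9). The exons of Gm26580 share 237 bases with those of Kcnq5 in GENCODE M21, and no source used here states whether the counting used strand, so reads of such antisense partners cannot be told apart.

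2310015A10Rik lies 7535 bases from Zfp36l1, an RNA-binding protein that promotes decay of AU-rich messenger RNAs, on the same strand. Zfp36l1 had 738 reads in exhausted and 335 in effector cells, a ratio of 2.04 (1.79 to 2.32). Gm26581, with 39 reads in exhausted and 17 in effector cells, overlaps H60b, a ligand of the NKG2D receptor, on the same strand, and H60b had 65 reads in exhausted and 19 in effector cells, a ratio of 3.16 (1.87 to 5.59). The lower pairs were Gm26732 with Sidt1 and RP23-32C18.2 with Ms4a4c. The spans of 3 of the 6 pairs do not overlap.

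The opposite pair was D930028M14Rik, which was 3.93-fold lower (1.98 to 8.50), with Pou2f2, the gene of the transcription factor Oct-2, on the other strand. Pou2f2 had 352 reads in exhausted and 124 in effector cells, a ratio of 2.62 (2.13 to 3.25). Pairs also differed at shared starts. 18 members begin within 1 kb of the start of a coding neighbour on the other strand, with spans that overlap there little or not at all. Members on the same strand as the neighbour, or with more overlap, are not in this count. Gm9885 with Ntrk3 is the only pair of the 18 with both called. 1700007L15Rik, 3.33-fold lower (1.74 to 6.78), begins 48 bases from the start of Zfp148, a zinc finger gene with 1315 reads in exhausted and 1200 in effector cells, a ratio of 1.01 (0.936 to 1.10).

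Where the coding gene alone was called, the widest ratios were those of Igf1r and Sgk3. Igf1r, the receptor of insulin-like growth factor 1, is the neighbour of both Fam169b and Gm16157 and had 291 reads in exhausted and 51 in effector cells, a ratio of 5.28 (3.91 to 7.25). Sgk3, a kinase gene 41114 bases from Snhg6, had 93 reads in exhausted and 444 in effector cells and was 5.16-fold lower (4.12 to 6.53). Galnt9, a glycosyltransferase gene 18365 bases from A630023P12Rik, had 329 reads in exhausted and 79 in effector cells, a ratio of 3.85 (3.004 to 4.99). The lincRNA beside each of these was within 2-fold.

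The table's types were set beside GENCODE M21, a later release on the same build. 117 of the 126 members were found there by gene ID, and 88 are still typed lincRNA. Another 9 are typed bidirectional promoter lncRNA, 8 antisense, 5 processed transcript, 4 protein-coding, 2 transcribed pseudogene and 1 to be experimentally tested. Of these 117, exons of 61 members overlap an exon of another gene in GENCODE M21, for 53 of them on the other strand. By the table's coordinates, 66 of all 126 members have spans free of any other gene of the table. Among the members called, the spans of 9 higher and 7 lower lincRNAs were free. Small RNA genes lie inside 14 members, and the members fall on 20 chromosomes.

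The members nearest the 50-read limit were Gm15326, with 29 reads in exhausted and 21 in effector cells, Gm26518, with 35 in exhausted and 16 in effector cells, and Gm26884, with 28 in exhausted and 23 in effector cells. Just outside it, Gm17491 and Gm26767 each had 36 reads in exhausted and 13 in effector cells, and 2010300F17Rik had 32 in exhausted and 17 in effector cells.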

How the data were processed

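RNA from sorted TEa cells was sequenced in 2 libraries, 1 per group. The authors deposited raw gene-level counts in whole reads. Gene symbols, coordinates, lengths and types were taken from the same table, per the file headers. STAR 2.6 and genome build mm10 are named in the submitters' processing notes. No source used here states the counting program, its strand setting or the annotation release.

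The members and gene lists were chosen with earlier results of these data known. Counts were scaled by TMM (edgeR 4.0.16, R 4.3.3) over genes with at least 50 reads, and ratios were taken as exhausted over effector, with exact Clopper-Pearson 95% intervals (scipy 1.17.1). These intervals hold counting error alone and are too narrow where PCR copies were counted as separate reads. A library at 0 reads was set to 3 reads. RPKM used the deposited gene length. A neighbour is the nearest protein-coding gene with at least 50 reads. Exon overlap and later types came from GENCODE M21 (GRCm38), microRNA and promoter sequences from RefSeq (GRCm38.p6), where 58 members matched a promoter by symbol.

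Named members were up to 12 with the largest and up to 12 with the smallest ratio among those called with at least 100 reads in the higher library. Fewer than 12 met this condition in each direction, so all that did were named. Also named were the 10 with most reads, measured list members, members of pairs with both genes called, and those at the read limit. The other 12 called members were named after their values were seen, as were other genes near Yam1, A930002I21Rik, A330023F24Rik, Gm26732 and RP23-32C18.2. Alternatives changed the scaling (including DESeq2 1.42.0), read minimum, fold, depth, floor, overlap and neighbour distance.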

Additional observations from a re-analysis of the deposited data

How the results depend on the processing

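Scaling by DESeq2 size factors, total counts, upper quartile or TMM over protein-coding genes left 20 or 21 lincRNAs called higher and 10 lower, and only Gm26762 changed its call (higher with DESeq2). Thinning the deeper library to equal depth gave 19 higher and 10 lower among 121 lincRNAs. Other choices moved the counts. Taking all 705 lincRNAs with at least 1 read gave 44 higher and 43 lower, and the median log2 ratio was -0.022 in place of 0.10. There, the 3-read floor turns the ratio of genes with 1 or 2 reads round. A minimum of 200 reads gave 5 higher and 3 lower, at least 4-fold gave 3 and 3, and an interval wholly beyond 2-fold gave 8 and 6. Among members whose spans overlap no other gene, 9 were higher and 7 lower, with a median log2 ratio of -0.034; the cause was not tested. Among the 56 members found in GENCODE M21 that share no exon bases with another gene 12 were higher and 9 lower, and among those still typed lincRNA in GENCODE M21 14 were higher and 8 lower. These last 2 choices, and leaving out Yam1, were added after seeing the data.

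Pairs called in the same direction were 6 in all, 5 within 10 kb, 7 at any distance (with RP23-307A6.1 and Satb1) and 3 with spans that do not overlap. The ratio of summed member reads, each over its library's total, was 1.22, 1.28 without Malat1 and 1.04 without Malat1 and Yam1. All 190 alternative values of the 38 members named by rule stayed inside their counting intervals. The other scalings had little room to leave them, since their library size ratios were 1.064 to 1.085 beside 1.082. The interval of Gm9885 has no upper end, and its ratio rose from 20.3 to 32.8 with a prior count of 2 in place of the floor. No paired analysis was possible because each group has 1 library. At a median of 122 reads over both libraries, smaller differences of most members cannot be resolved.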

Other observations

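Other noncoding classes of the table were measured in smaller or similar numbers. Of 70 measured processed transcripts, 11 were called higher and 5 lower in exhausted cells, with a median log2 ratio of 0.16. Of 53 measured antisense genes, 6 were higher and 6 lower, with a median of -0.03, and of 130 measured pseudogenes, 10 were higher and 5 lower, with a median of 0.17. Their median levels in exhausted and effector cells were 3.51 and 3.33 RPKM for processed transcripts and 6.72 and 7.27 RPKM for antisense genes.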
